A study of Mus musculus with 90 samples.

Results

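Zfp352, Tcstv1, Tcstv3, Tdpoz1, Tdpoz2, Tdpoz3, Tdpoz4, Usp17la, Usp17lc and Usp17le are genes known for a burst of transcripts in the mouse 2-cell embryo. Members were the rows of the deposited count table that carry these symbols, and 10 of the 24422 gene rows did. They were followed in single MII oocytes, 2-cell (2c) embryos and 8-cell (8c) embryos of 2 genotypes. WT oocytes and embryos came from wildtype females of the CD-1 strain, mated with WT studs for the embryos. Oocytes labelled Plag1 knockout came from females lacking both alleles of Plag1, a zinc finger transcription factor gene, without mating. Embryos labelled Plag1 knockout came from such females and WT studs, so they carry a paternal WT allele and lack the maternal one. These embryos are called matPlag1KO here. The oocytes of the knockout females carry no paternal allele and are given the same name for brevity. All females were sexually mature and superovulated with gonadotropins, and the embryos were cultured in KSOM medium. Oocytes were picked 21 to 23 h after hCG, 2c embryos 45 to 47 h and 8c embryos 71 to 73 h after fertilisation. The labels do not name the donor females, so embryos of 1 female could not be grouped. The p-values measure the spread between single oocytes or embryos, each counted as independent.

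In the mouse, the oocyte carries maternal transcripts through meiosis and the first cleavage, and the major activation of the embryo's own genome takes place at the 2c stage. A set of genes is transcribed in that window and silenced soon after, and the same set reappears in the rare 2c-like cells of embryonic stem cell cultures, where the homeobox factor Dux can switch it on. Zfp352 encodes a zinc finger protein. The Tdpoz genes, in a cluster on chromosome 3, encode proteins with a TRAF domain and a POZ domain, related to the ubiquitin ligase adaptor Spop. The Usp17l genes on chromosome 7 encode deubiquitinating enzymes of the Dub family. The Tcstv genes are named for their variable presence in 2c embryos.

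The rows, in the mm9 coordinates of the table, differed in how far they could be read. Zfp352 spans chr4:89885511-89892378 on the plus strand. Tdpoz2 (chr3:93455464-93456608) and Tdpoz1 (chr3:93473255-93480205) lie on the minus strand, and Tdpoz4 (chr3:93600320-93601432) and Tdpoz3 (chr3:93629942-93631039) on the plus strand of the same cluster. Usp17lc (chr7:110565210-110567688) and Usp17la (chr7:112005530-112011181) lie on the plus strand, and Usp17le (chr7:111916563-111925984) on the minus strand. Of the 31-base words in each row, 82.7% occurred only once in the genome for Zfp352 and 62.4% for Usp17la. The share was 41.0% for Tdpoz1, 32.5% for Tdpoz2, 24.3% for Tdpoz3, 35.4% for Tdpoz4, 22.7% for Usp17lc and 40.9% for Usp17le. These shares are over the whole row, while the libraries were made from 5′ ends of transcripts. Over the first 200 bases of the row it was 31.5% for each of Tdpoz2, Tdpoz3 and Tdpoz4, and lowest for Tdpoz1, at 15.5%. There it was 84.5% for Zfp352, 82.5% for Usp17la and 37.5% for Usp17le, and for Usp17lc it stayed close to that of the row. Tdpoz1 and Tdpoz3 were identical at 88.1% of their aligned bases, and Tdpoz4 at 78.4% to 79.4% with the other three. Reads of these near-copies could be split or dropped in counting, so the values of single Tdpoz and Usp17l genes are uncertain in that respect.

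Tcstv1 and Tcstv3 had 0 counts in all 90 libraries. Their rows lie on the unplaced scaffold chrUn_random, at 37343 to 38736 and at 3053 to 4452 on the minus strand. None of the 99 rows on unplaced or random scaffolds had a count in any library, against 19661 of 24323 rows on placed chromosomes with at least 1. The 0 of both Tcstv genes is therefore no measurement of their transcripts, and they are not described further. Usp17le had 9 counts in 4 libraries and was left out of the tests, which required a level of 1 CPM (counts scaled to the size of the library) in at least 5 libraries. The other 7 members were tested.

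The upstream sequences of 4 members are shown because they carry the features that the genes share or do not share. Each is the 250 bases before the RefSeq start site, on the strand of the gene, in the build GRCm38.p6, whose coordinates differ from those of the table. RefSeq held such a sequence for 5 of the 10 members, Tdpoz4 being the other. Capitals mark TAATCC, the core letters bound by homeodomains of the OTX and OBOX kind, on either strand, and the TATA box core TATAA, on either strand. The positions are chr4:90218570-90218819 (plus) for Zfp352, chr3:93676284-93676533 (minus) for Tdpoz1, chr7:104856766-104857015 (plus) for Usp17la and chr7:103416446-103416695 (plus) for Usp17lc.
Zfp352: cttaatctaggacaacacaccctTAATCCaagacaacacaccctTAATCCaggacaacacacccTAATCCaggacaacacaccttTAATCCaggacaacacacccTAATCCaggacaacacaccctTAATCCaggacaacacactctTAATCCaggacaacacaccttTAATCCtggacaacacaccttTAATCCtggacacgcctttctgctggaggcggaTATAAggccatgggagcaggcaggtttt
Tdpoz1: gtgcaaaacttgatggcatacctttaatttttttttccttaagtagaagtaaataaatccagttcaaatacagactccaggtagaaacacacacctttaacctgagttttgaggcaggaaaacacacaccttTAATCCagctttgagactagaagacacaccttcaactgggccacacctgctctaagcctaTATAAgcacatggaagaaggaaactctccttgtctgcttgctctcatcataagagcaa
Usp17la: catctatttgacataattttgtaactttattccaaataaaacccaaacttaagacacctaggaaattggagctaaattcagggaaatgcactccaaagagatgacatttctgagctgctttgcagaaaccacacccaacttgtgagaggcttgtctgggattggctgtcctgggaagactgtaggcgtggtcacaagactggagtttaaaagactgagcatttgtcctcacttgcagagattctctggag
Usp17lc: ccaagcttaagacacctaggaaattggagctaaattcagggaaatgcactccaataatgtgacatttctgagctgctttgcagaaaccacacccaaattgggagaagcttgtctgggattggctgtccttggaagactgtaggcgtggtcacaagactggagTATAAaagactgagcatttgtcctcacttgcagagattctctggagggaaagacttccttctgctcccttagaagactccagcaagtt

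The Zfp352 sequence was a tandem repeat, and TAATCC stood in it 9 times. In windows of 300 bases (250 before and 50 after the start), 7.06% of 32851 RefSeq start sites held TAATCC at least once, and Zfp352 was the only window with as many as 9. Tdpoz1 held it once, and the windows of Tdpoz4, Usp17la and Usp17lc did not. TATAA stood once in the windows of Zfp352, Tdpoz1 and Usp17lc, and in 24.9% of all windows. Usp17la and Usp17lc were near-copies upstream of their starts, with 198 of 208 aligned bases identical (95.2%). The PLAG1 consensus, searched on both strands, was in none of the 5 windows, while 19.2% of all windows held it. These are matches of letters and say nothing of binding.

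Of the 90 libraries, 78 were kept, with 16 WT and 14 matPlag1KO oocytes, 11 and 11 2c embryos, and 15 and 11 8c embryos. Kept 2c libraries held 92475 to 256529 gene counts, kept oocytes 222357 to 2502421 and kept 8c embryos 214053 to 696870. Plag1 itself had counts in 16 of 16 WT oocytes and 3 of 14 matPlag1KO oocytes, in 1 of 11 WT 2c embryos and in 9 of 11 labelled matPlag1KO. At 2c that order is the opposite of the oocytes'. As these embryos also carry a paternal WT allele, their Plag1 counts do not check the label, and the group is called by it. All 10 genes of the oocyte list (Zp1, Zp2, Zp3, Gdf9, Bmp15 and others) fell between MII and 2c in WT, as did 8474 of all 16511 tested genes. The summed level of the list had a median of 4019 CPM in WT and 6094 CPM in matPlag1KO 2c embryos. Markers of cumulus cells, which surround the oocyte, summed to at most 21.8 CPM in any 2c library, and their part in the results was not tested.

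Zfp352 was close to absent in oocytes, abundant in every 2c embryo and nearly gone at 8c. Across all 16 WT oocytes it had 1 count and across 14 matPlag1KO oocytes 2 counts. At 2c the 11 WT embryos ranged from 72.9 to 884 CPM with a median of 173, and the 11 matPlag1KO embryos from 143 to 477 CPM with a median of 318. At 8c it had 5 counts in 3 of 15 WT embryos and 7 counts in 5 of 11 matPlag1KO embryos. No 8c embryo of either genotype exceeded 6.33 CPM, so the 2c levels overlapped with no other stage. Scaled to the spike-in RNA added to each library, which compares amounts per embryo, Zfp352 rose by 8.16 (SE 0.58) on the log2 scale from MII to 2c in WT and by 8.00 (SE 0.59) in matPlag1KO. From 2c to 8c it fell by 7.0 (SE 0.53) and by 6.42 (SE 0.59). The 4 adjusted p-values (edgeR quasi-likelihood test, Benjamini-Hochberg) were 4.8e-22, 7.12e-21, 4.58e-20 and 4.72e-16. Because the oocytes held so few counts, the pooled WT rise was 827-fold with a 95% counting interval of 148 to 32713, and the pooled WT fall to 8c was 177-fold (75.3 to 547).

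**Figure D1:**
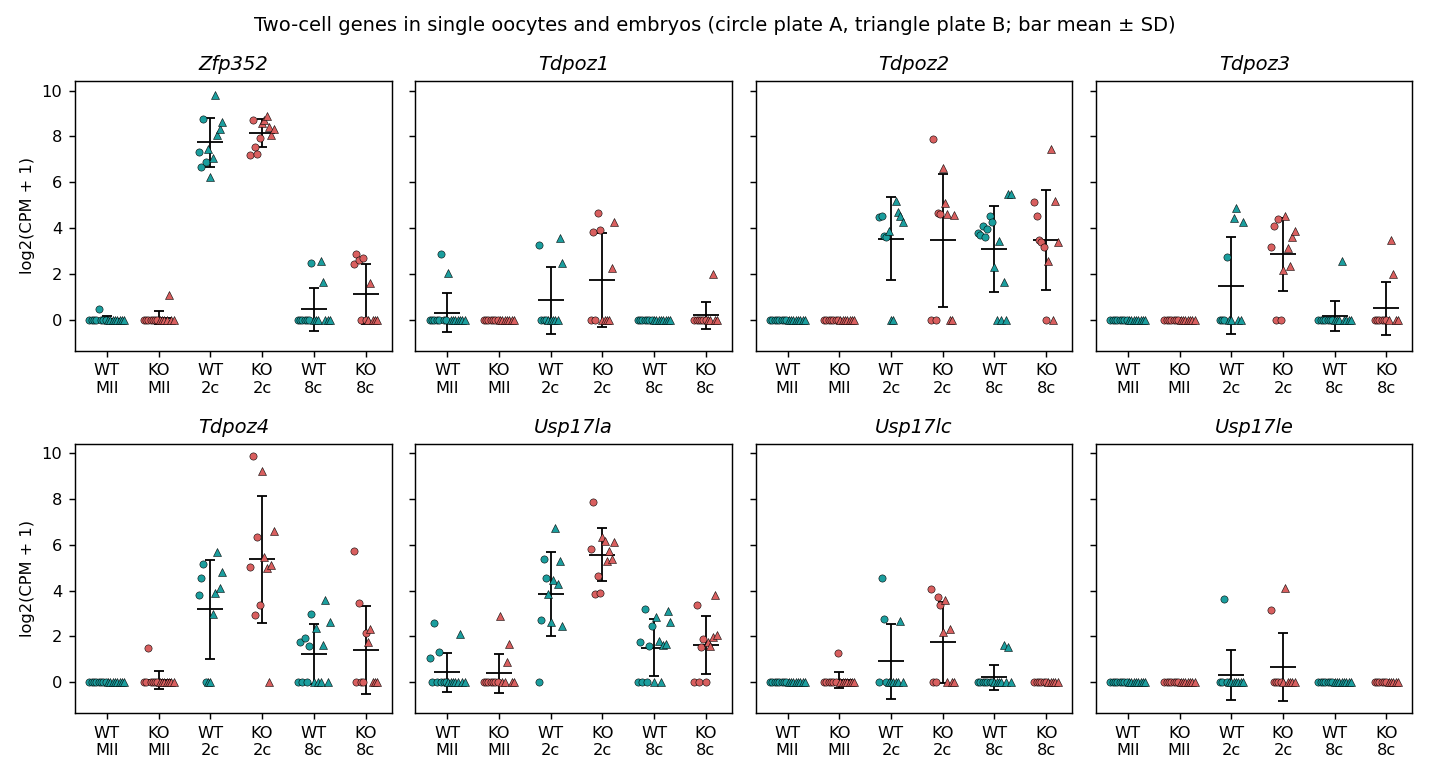
Level of 8 members in each kept library, as log2(CPM + 1), for WT (green) and matPlag1KO (red, marked KO) at MII, 2c and 8c; circles are plate A, triangles plate B, and bars the mean ± SD. Zfp352 and Usp17la were counted in nearly every 2c embryo, Tdpoz2 kept its level into 8c, and 2 matPlag1KO 2c libraries stand above the others in Tdpoz4.

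The 4 Tdpoz members were rarely counted in oocytes. At 2c each appeared in some embryos only, with lower group means than Zfp352 in both genotypes. They are not the whole family. Tdpoz5, which is no member, stood at 143 ± 48.9 CPM in WT and 108 ± 65.5 CPM in matPlag1KO 2c embryos (SD, n = 11 each). In the 16 WT oocytes Tdpoz2, Tdpoz3 and Tdpoz4 had 0 counts and Tdpoz1 had 4 counts in 2 oocytes. The matPlag1KO oocytes held 1 count of Tdpoz4 and none of the other three. In WT 2c embryos Tdpoz4 ranged from 0 to 50.04 CPM (median 14.1) with counts in 8 of 11, and Tdpoz2 from 0 to 35.4 CPM (median 17.9) with counts in 9 of 11. Tdpoz3 had counts in 4 of 11 and Tdpoz1 in 3 of 11 WT 2c embryos. The levels of Tdpoz2 and Tdpoz4 in WT, 16.4 ± 10.6 CPM (SD, n = 11) and 16.7 ± 15.9 CPM (SD, n = 11), differed by less than their spread.

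On the spike-in scale Tdpoz2, Tdpoz3 and Tdpoz4 rose from MII to 2c in WT, with adjusted p = 5.46e-05, 0.000127 and 1.61e-05 in edgeR's quasi-likelihood test. As the WT oocytes had no count, the folds are lower bounds, set against 3 counts over the group: at least 17-fold higher for Tdpoz2 and for Tdpoz4, and at least 6.18-fold higher for Tdpoz3. Tdpoz1, with 4 counts before and 5 after, was not called (log2 fold change 0.68, SE 0.77, adjusted p = 0.438). In matPlag1KO all 4 were called. Against no count in the oocytes, Tdpoz2 was at least 54.5-fold, Tdpoz3 at least 10.5-fold and Tdpoz1 at least 7.85-fold higher, and Tdpoz4 rose from 1 to 528 counts (691-fold, counting interval 123 to 27343). Without the matPlag1KO 2c libraries of well D2 described below, which hold most of these counts, the Tdpoz2 bound was at least 14-fold with 25 counts in 9 embryos. Tdpoz4 then rose from 1 to 69 counts (116-fold, 20.2 to 4651), and both stayed called as higher.

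After the 2c stage the Tdpoz members parted. Tdpoz2 stayed at 8c, with counts in 12 of 15 WT embryos (0 to 44.3 CPM, median 11.9) and 9 of 11 matPlag1KO embryos (0 to 176 CPM, median 9.59). Its levels at 2c and 8c overlapped, and on the spike-in log2 scale the second step gave 0.74 (SE 0.77, adjusted p = 0.434) in WT and 0.30 (SE 0.76, adjusted p = 0.774) in matPlag1KO. With edgeR's TMM scaling, which compares shares of each library in place of amounts, the signs turned (-0.20 and -0.58). In matPlag1KO plate A alone gave -1.62 (adjusted p = 0.193). Without the matPlag1KO 2c libraries of well D2 described below, the change was 2.03 (adjusted p = 0.0405), a rise. Those libraries held 80.0% of the Tdpoz2 counts of their group. The fit kept the matPlag1KO 8c embryo of plate B, well E7, which held 87 of the 128 Tdpoz2 counts at 8c. No fit left that embryo out. Tdpoz3 had 2 counts in 1 of 15 WT 8c embryos and fell by 2.46 (SE 0.80, adjusted p = 0.00868), while in matPlag1KO its change was -1.68 (SE 0.86, adjusted p = 0.1). Tdpoz1 had 0 counts in WT and 1 count in matPlag1KO at 8c and was called as lower in both (adjusted p = 0.00543 and 0.00539). In WT the level was 2.76-fold lower against the floor of 3 counts, without the counting error of the few counts at 2c. Tdpoz4 fell by 4.32 (SE 0.82, adjusted p = 9.27e-06) in matPlag1KO, and by 1.94 (SE 0.78, adjusted p = 0.0345) without the 2 libraries of well D2. In WT it changed by -1.66 (SE 0.76, adjusted p = 0.0629), which passed only with TMM scaling among the alternatives (-2.59, adjusted p = 0.00255).

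Usp17la was the only Usp17l member counted in most 2c embryos. WT oocytes held 9 counts in 4 of 16 and matPlag1KO oocytes 8 counts in 3 of 14. At 2c it ranged from 0 to 106 CPM (median 18.8) in WT, with counts in 10 of 11 embryos, and from 13.4 to 234 CPM (median 53.0) in matPlag1KO, with counts in all 11. At 8c a low level was left, with a median of 2.23 CPM in WT and 2.40 CPM in matPlag1KO. It rose by 2.78 (SE 0.66) and 4.45 (SE 0.69) from MII to 2c and fell by 1.87 (SE 0.63) and 3.45 (SE 0.71) from 2c to 8c on the spike-in log2 scale, with adjusted p from 4.73e-08 to 0.0105 in edgeR. In WT plate A alone, neither step passed (adjusted p = 0.191 and 0.255). Usp17lc had 0 and 1 counts in the oocytes of WT and matPlag1KO, 6 counts in 3 of 11 and 11 counts in 6 of 11 embryos at 2c, and 2 and 0 counts at 8c. It was called as higher at 2c than at MII in both (adjusted p = 0.00186 and 0.00208), which in WT was 3.09-fold against the floor of 3 counts. From 2c to 8c it was called as lower in matPlag1KO (adjusted p = 0.000587), 3.59-fold lower against the same floor. Neither fold includes the counting error of the few counts at 2c. In WT the fall was not called (log2 fold change -1.52, SE 0.69, adjusted p = 0.0634). There 3 of 7 alternatives passed, TMM scaling among them (-2.53, adjusted p = 0.00721), and plate B alone gave 0.22 (adjusted p = 0.878). Usp17le was counted in 1 WT and 2 matPlag1KO kept 2c embryos and in no other kept library.

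**Figure D2:**
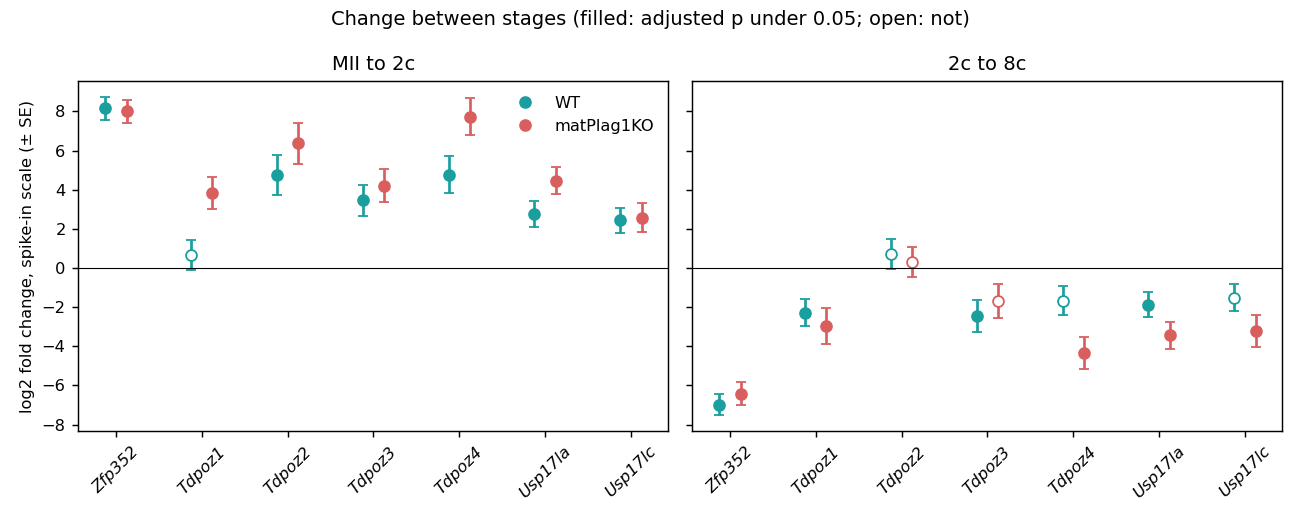
Change of the 7 tested members from MII to 2c (left) and from 2c to 8c (right) on the log2 spike-in scale, ± SE, in WT (green) and matPlag1KO (red); filled points passed an adjusted p of 0.05 and open points did not. Zfp352 moved by 6.42 to 8.16 in each step, and Tdpoz2 had values above 0 after 2c in both genotypes, which turn below 0 with TMM scaling.

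From MII to 2c, 6 of the 7 tested members rose in WT, where 14.1% of all tested genes rose. In matPlag1KO all 7 did, where 13.5% rose. From 2c to 8c, 4 of 7 fell in WT (16.2% of all tested genes fell) and 5 of 7 in matPlag1KO (19.5%). With TMM scaling, 6 fell in each genotype. The shares above are of the spike-in fit, and the share of all genes that fell with TMM scaling is not given here. The median log2 fold change of the 7 was 3.46 in WT and 4.45 in matPlag1KO from MII to 2c, while over all genes it was -1.46 and -1.42. From 2c to 8c it was -1.87 and -3.22, against 0.53 and 0.30 over all genes. With the members that had no count in a group at their bound, the member medians were 2.78, 4.45, -1.66 and -2.97. Several calls of low members were lost in a smaller or different fit. Tdpoz3 lost its WT rise (adjusted p = 0.114) and its WT fall (0.185) in DESeq2, and that fall also in plate B alone (0.0564). Tdpoz1 lost its WT fall in plate A (0.135) and in plate B (0.0566) and its matPlag1KO fall in plate B (0.331). Usp17lc lost its rise in WT plate B (0.293) and matPlag1KO plate A (0.0727) and its matPlag1KO fall in plate B (0.0711). The members were chosen for expression at 2c, so these counts describe the table and are no independent evidence of it. Spike-in amounts and CPM are for a whole embryo, and fewer cells that express a gene cannot be told apart from less RNA per cell.

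Single 2c embryos differed in which members were counted. WT embryos had counts in 2 to 6 of the 10 members (median 4) and matPlag1KO embryos in 3 to 7 (median 6). The 10 include both Tcstv genes, which were not measured. In WT, Tdpoz1, Usp17lc and Usp17le had 5, 6 and 2 counts over the 11 embryos, so a member without a count may have been missed. Kept matPlag1KO 2c libraries were also deeper, with a median of 163626 gene counts against 148473. The part of depth in these numbers was not tested. Zfp352 was present in all 22. The WT embryo with the highest Zfp352 (884 CPM, plate B, well C5) also held the highest Usp17la (106 CPM) and Tdpoz2 (35.4 CPM) of the WT embryos. Its summed oocyte markers, 7662 CPM, were also the highest of the WT group. The WT embryo with the lowest Zfp352 (72.9 CPM, plate B, well C3) had no count of Tdpoz1, Tdpoz2, Tdpoz3 or Tdpoz4.

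Across the 22 embryos, the log2(CPM + 1) of Zfp352 and Usp17la had a Pearson r of 0.59 and a Spearman rho of 0.60. Within WT and within matPlag1KO r was 0.56 and 0.56 (n = 11 each). Tdpoz2 and Tdpoz4 had r = 0.60 over the 22 and 0.40 without the 2 libraries highest in Tdpoz4, and Tdpoz4 and Usp17la 0.45 and 0.23. Tdpoz2 and Tdpoz3 had r = 0.09. These are descriptions over embryos that share library pools and differ in depth, and most values of Tdpoz2, Tdpoz3 and Tdpoz4 rest on a few counts.

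**Figure D3:**
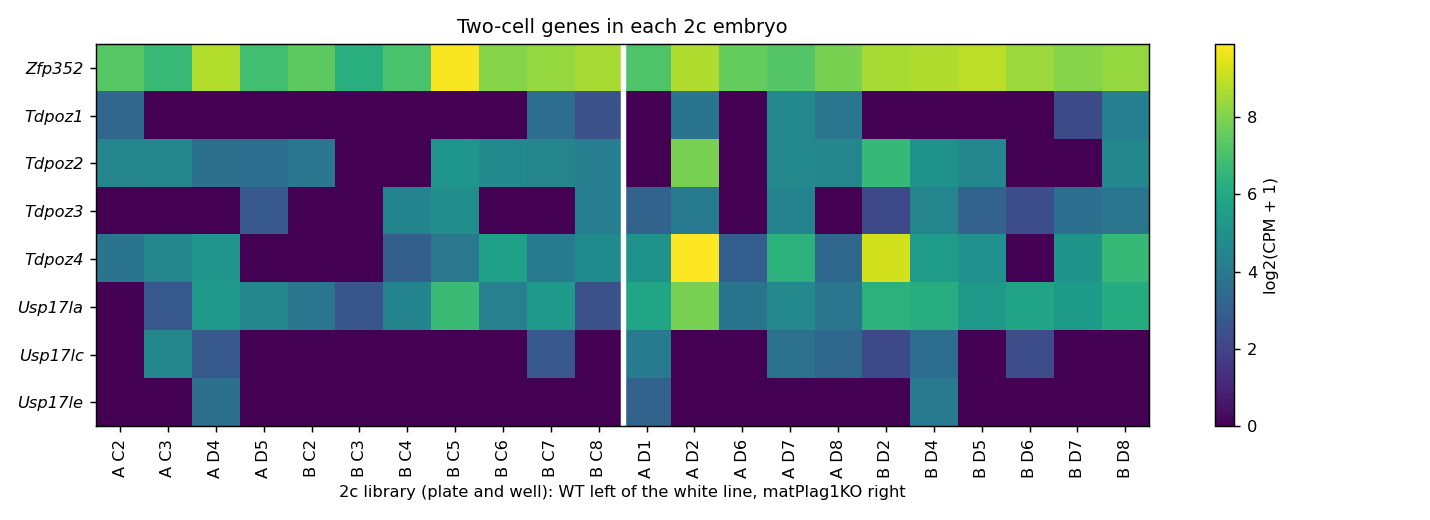
Level of 8 members in each kept 2c embryo, as log2(CPM + 1) by colour, with columns by plate and well, WT left and matPlag1KO right of the white line. Zfp352 was counted in all 22 embryos, and the matPlag1KO libraries in well D2 of both plates hold the highest Tdpoz4 values.

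matPlag1KO and WT 2c embryos were then compared. Of the 7 tested members, Tdpoz4 was the only call, higher in matPlag1KO, where 4.92% of all 16511 genes were called in either direction. A second member, Usp17la, had an unadjusted p under 0.05. Tdpoz4 ranged from 0 to 50.04 CPM (median 14.1) in WT and from 0 to 946 CPM (median 33.8) in matPlag1KO, with counts in 8 of 11 and 10 of 11 embryos. The groups overlapped, and 4 matPlag1KO embryos lay above the highest WT embryo. The means were 16.7 ± 15.9 CPM (SD, n = 11) and 170 ± 308 CPM (SD, n = 11), the log2 fold change was 3.37 (SE 0.67), and the adjusted p was 0.00142 in edgeR's quasi-likelihood test.

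This call rested on 2 embryos. The matPlag1KO libraries of well D2 in plate A (291 counts, 946 CPM) and well D2 in plate B (168 counts, 593 CPM) held 86.9% of the Tdpoz4 counts of their group, against 26.1% of its gene counts. The next matPlag1KO embryo had 96.8 CPM. They were the 2 deepest matPlag1KO 2c libraries, with 256529 and 232044 gene counts. The same 2 libraries held 80.0% of the Tdpoz2 counts, 55.9% of those of Usp17la, 32.2% of those of Zfp352 and 31.9% of those of Plag1. Their summed oocyte markers were 7399 and 10084 CPM, in a group that ranged from 2938 to 10084 CPM. Their counts differed from each other by a chi-square of 4 per degree of freedom, beyond sampling noise and yet the lowest of the 55 pairs of matPlag1KO 2c libraries (up to 14). The correlation of their deviations from the group mean, 0.21, was the highest of those pairs. Whether sharing a well position has a part in this was not tested. Without both, an alternative chosen after their values were seen, the log2 fold change of Tdpoz4 was 1.16 (SE 0.68, adjusted p = 0.374), no member was called, and the matPlag1KO mean was 37.1 ± 33.0 CPM (SD, n = 9). The pooled ratio of matPlag1KO to WT fell from 14.2 (counting interval 9.96 to 20.8) to 2.51 (1.63 to 3.92). Leaving out any single 2c library kept the call, with log2 fold changes from 2.50 to 3.66. limma-voom gave 1.98 (adjusted p = 0.06), plate A alone 3.60 (adjusted p = 0.413) and plate B alone 3.0 (adjusted p = 0.0175).

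**Figure D4:**
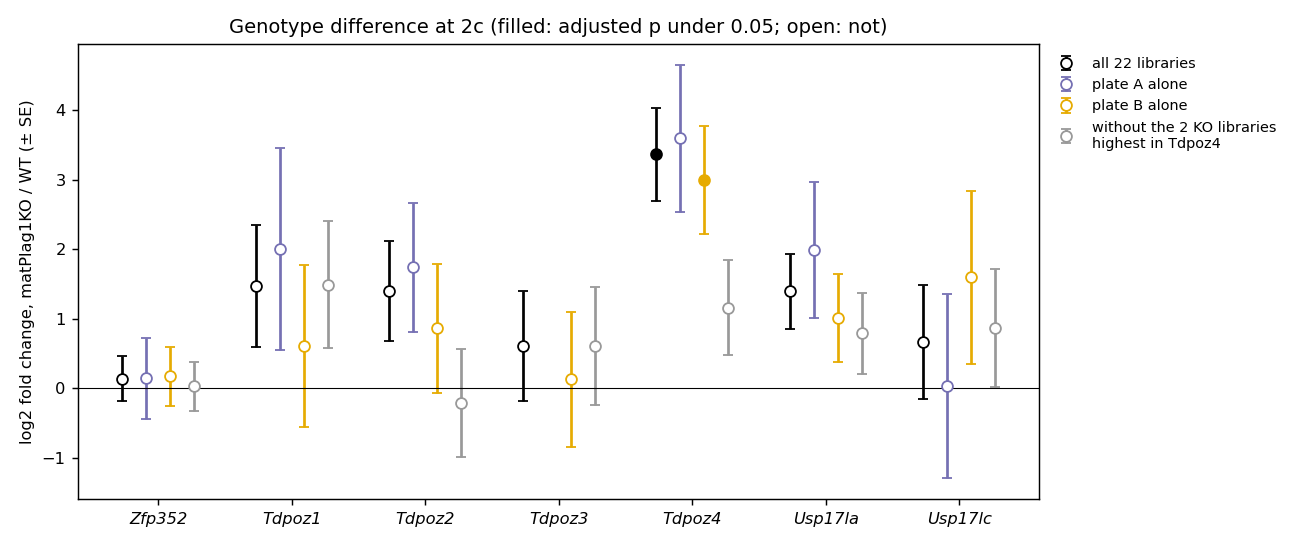
Log2 fold change of matPlag1KO over WT at 2c, ± SE, for the 7 tested members in all 22 libraries (black), plate A alone (purple), plate B alone (yellow) and without the 2 matPlag1KO libraries highest in Tdpoz4 (grey); filled points passed an adjusted p of 0.05. Tdpoz4 fell from 3.37 to 1.16 without the 2 libraries, Tdpoz2 changed sign, and Zfp352 stayed near 0; Tdpoz3 was not tested in plate A.

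Usp17la was 25.1 ± 30.0 CPM (SD, n = 11) in WT and 63.2 ± 61.0 CPM (SD, n = 11) in matPlag1KO. The lowest matPlag1KO embryo had 13.4 CPM, and 4 WT embryos lay below it. The log2 fold change was 1.40 (SE 0.54), which did not pass (adjusted p = 0.112). It passed with all deposited libraries kept (1.84, adjusted p = 0.0141), in limma-voom (1.58, adjusted p = 0.0461) and without the WT embryo of well C5 in plate B (1.93, adjusted p = 0.0303). Without the 2 libraries in well D2 it was 0.79 (adjusted p = 0.556), the highest adjusted p of its alternatives.

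Zfp352 did not differ beyond its spread between the genotypes. Its means were 277 ± 235 CPM (SD, n = 11) in WT and 303 ± 114 CPM (SD, n = 11) in matPlag1KO, 4 WT embryos lay below the lowest and 1 above the highest matPlag1KO embryo, and the log2 fold change was 0.14 (SE 0.33, adjusted p = 0.871). The matPlag1KO embryos of plate B lay at 367 ± 73.7 CPM (SD, n = 6) and those of plate A at 227 ± 112 CPM (SD, n = 5). WT embryos were at 320 ± 272 CPM (SD, n = 7) and 202 ± 154 CPM (SD, n = 4) in the same plates. Tdpoz2 changed by 1.40 (SE 0.72, adjusted p = 0.255), and by -0.21 without the 2 libraries. Tdpoz1 was at 1.48 (SE 0.88, adjusted p = 0.336), with 18 counts in 5 of 11 matPlag1KO and 5 counts in 3 of 11 WT embryos. Tdpoz3 (0.61, SE 0.79) and Usp17lc (0.66, SE 0.82) had adjusted p = 0.709 and 0.694. The median log2 fold change of the 7 members was 1.40, and 0.12 over all genes tested. That median is the value of Usp17la, which was 0.79 without the 2 libraries of well D2. The median of the members without those libraries is not given here.

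In oocytes and at 8c no member was called between the genotypes, where 0.781% and 1.74% of all genes were. At an unadjusted p under 0.05 there was 1 member in oocytes (Tdpoz1, 4 counts in WT and 0 in matPlag1KO) and none at 8c. In DESeq2 and edgeR's likelihood ratio test the count was also 0 at both stages. At 8c, the highest Tdpoz2 value, 176 CPM from 87 counts, was in a matPlag1KO embryo. The Tdpoz2 means there, 14.0 ± 14.0 CPM (SD, n = 15) in WT and 28.3 ± 50.7 CPM (SD, n = 11) in matPlag1KO, differed by less than their spread (adjusted p = 0.479). The genotype difference at 2c was also set against that at the other stages. Against MII, 1 of 7 members was called (3.31% of all genes), Tdpoz1, at 3.02 (SE 0.91) on the log2 scale with adjusted p = 0.0498. This call rests on 4 counts against 0 in oocytes and was lost under 8 of 11 alternatives. Against 8c, none was called (2.30% of all genes), and Tdpoz4 had 2.34 (SE 1.12, adjusted p = 0.251, unadjusted p = 0.0399).

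Other 2c-stage genes, on a list of 40 that includes Zscan4, Trim43 and Pramef genes, were read beside the members. Of 30 tested, in WT 24 were higher and 2 lower at 2c than at MII, and 3 were higher and 21 lower at 8c than at 2c. Gm4340 and Gm6763, both among those higher at 2c and lower at 8c, had the same values in every group. Whether their rows count the same reads was not tested, so they may be a single signal in these numbers. Of all 16511 tested genes, 2326 were higher and 8474 lower in WT at 2c than at MII. From 2c to 8c, 5269 were higher and 2681 lower. The share of all genes called between the genotypes at 2c, 4.92%, is the background of the genotype counts that follow. Between the genotypes at 2c only Trim43b, a tripartite motif gene of the cleavage stages, was called, lower in matPlag1KO (78 ± 46 CPM against 161 ± 43 CPM, SD, n = 11 each; log2 fold change -1.06, adjusted p = 0.0389). The median log2 fold change of the list was 0.24. Of 11 tested activators of the 2c program, 2 were called, both lower in matPlag1KO. Dppa2 and Dppa4 encode partner chromatin proteins known to switch on Dux in stem cells. Dppa2 had 180 ± 101 CPM against 531 ± 248 CPM in WT (log2 fold change -1.57, adjusted p = 0.000127), and Dppa4 141 ± 86.6 CPM against 368 ± 121 CPM (-1.39, adjusted p = 0.00482). Dux itself had 22 counts in matPlag1KO and 6 in WT (log2 fold change 1.40, SE 0.79, adjusted p = 0.305). Of 16 repressors of the 2c program, Max, the dimer partner of Myc and a subunit of a Polycomb complex, was called, higher in matPlag1KO (597 ± 404 CPM against 206 ± 162 CPM; log2 fold change 1.53, adjusted p = 0.0326). Among the marker lists, Bmp15, an oocyte growth factor, was 1 of 10 oocyte genes called (1.83, adjusted p = 0.011) and was picked out after its value was seen. None of 10 8c markers, 4 tested cumulus markers or 5 tested sperm markers was called between the genotypes at 2c in edgeR.

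The genes whose levels ran most like the members' were sought over all 78 libraries. For Zfp352 they were B020004C17Rik (Pearson r = 0.97), Gm4971 (0.96) and Rfpl4b (0.96), for Tdpoz4 Gm4858 (0.81), Gm12794 (0.76) and Gm9125 (0.75), and for Usp17la Gm8300 (0.83), BB287469 (0.83) and Gm4971 (0.82). B020004C17Rik followed the same course as Zfp352 and stood at 538 CPM in WT and 385 CPM in matPlag1KO at 2c, against 1.11 and 4.18 CPM at 8c. The libraries of all 3 stages enter these values, and they describe likeness over stages, not within a stage. Gm12794, Gm8300 and BB287469 are also on the list of other 2c-stage genes. Gm9125 had nearly the group means of Tdpoz5, a gene of that list, with 143 CPM for both in WT and 108 CPM for both in matPlag1KO at 2c. Whether the 2 rows count the same reads was not tested, so Gm9125 is not read as a gene apart from the Tdpoz family.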

How the data were processed

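The authors made 5′-end libraries from single oocytes and embryos in 2 pools (plates A and B), with ERCC spike-in RNA and molecular identifiers, aligned them to mm9 and counted reads per gene with HOMER (named in the submitters' processing notes). The deposited values are raw counts for 90 libraries. The members and gene lists were chosen with earlier results of these data known. A median CPM under 1 excluded 12 of 90 libraries. A gene entered the tests if 5 or more kept libraries reached 1 CPM (16511 genes). A single model over the 6 groups was fitted with edgeR 4.0.16 (R 4.3.3) and its quasi-likelihood test, with Benjamini-Hochberg adjustment and calls at 0.05. Genotypes were compared with TMM factors and stages with the spike-in total as library size. CPM used TMM sizes, with 1 added before log2. Counting intervals (95%, exact) cover counting error only. The floor of 3 counts stands in for a 0, and folds set against it leave out the counting error of the other group. No 2 kept libraries of a group were copies (lowest chi-square per degree of freedom 3.54). The genotype fit at 2c and the spike-in fit between stages were checked on simulated counts with known changes. The genes singled out in that check had many counts, so it does not cover members with few counts or none. Alternatives used DESeq2 1.42.0, limma 3.58.1 (voom), edgeR's likelihood ratio test, other scaling, filters and plates, and each 2c library left out. Words of 31 bases were counted in NCBIM37 (mm9), and upstream sequences are from RefSeq (GRCm38.p6). Every member in the table was named. Of the other 2c-stage genes, activators and repressors, those called between genotypes at 2c that averaged 20 CPM or more in either 2c group were named. For the highest member of each counted family, the 3 genes most like it over all kept libraries were named, besides Plag1.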

Additional observations from a re-analysis of the deposited data

Results flagged for a closer look

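The genotype difference of Tdpoz1 at 2c differed from that in oocytes by 3.02 on the log2 scale (SE 0.91, adjusted p = 0.0498 interaction term in edgeR). It is listed because the test of the difference itself passed. The value rests on 4 counts in 2 of 16 WT oocytes and 0 in 14 matPlag1KO oocytes, and on 5 and 18 counts at 2c. It was not called under 8 of 11 alternatives, and the cause of that was not tested.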

How the results depend on the processing

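At 2c between the genotypes, 2 members were called with all libraries kept, 0 in plate A alone, and 0 without the 2 matPlag1KO libraries of well D2 (chosen after seeing the data), with 1 to 2 over the 22 fits that left out 1 library. The 2 arose without the WT embryo of well C5 in plate B. The call of Tdpoz1 for the difference between 2c and MII became 0 with no gene filter, spike-in scaling, the likelihood ratio test, DESeq2, plate as a term, plate A alone, plate B alone and without the 2 libraries. From 2c to 8c, 2 members in WT were called in DESeq2, plate A and plate B, and 3 in matPlag1KO in DESeq2 and plate B, while TMM scaling called 6 in each genotype. DESeq2 gave no adjusted p for 2 of the 7 members there. The shares of all genes called under these settings are not given here. Tdpoz2 turned direction from 2c to 8c with TMM scaling (-0.20 in WT, -0.58 in matPlag1KO) and in matPlag1KO plate A (-1.62), and at 2c without the 2 libraries (-0.21). Usp17lc turned in WT from 2c to 8c in plate B (0.22). Of the other values of single members, 431 kept their direction and side of the threshold, 14 lost the call and 10 gained it. The cause of these shifts was not tested. With the well as a replicate block at MII, the number of members called was 0, as without it. Oocytes of opposite genotype in the same well of the 2 plates had correlations of their deviations from -0.06 to 0.76 over 14 pairs, and 25 of 28 oocytes correlated best with their own well. As not every pair passed 0.1, the well was not taken as a pairing. The p-values therefore count libraries of the same well as independent, although most oocytes correlated best with their own well. At the depth of the 2c libraries, a member near 1 or 2 counts per embryo could not be ranked between embryos.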

Other observations

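Of the 2c libraries left out for a median CPM under 1, the deepest matPlag1KO embryo (84921 gene counts) held 104 counts of Zfp352, 33 of Usp17la and 8 of Tdpoz4. The deepest WT embryo left out (93953 gene counts) held 37, 2 and 3. Usp17lb, which is no member, had 53.4% of its matPlag1KO 2c counts in the 2 libraries of well D2, and Tdpoz5 32.7%.

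Libraries in the same well of the 2 plates tended to deviate together from their group means, over 8418 genes. Among same-well pairs, the library of the same stage in the other plate with the highest correlation was the one in its own well for 25 of 28 oocytes, 7 of 16 2c embryos and 19 of 24 8c embryos. The pairs held opposite genotypes in all 14 cases at MII, 2 of 8 at 2c and none of 12 at 8c. Most same-well pairs at 2c and all at 8c were thus of the same genotype, and the main fits counted their libraries as independent. What this does to the p-values was not tested.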
